A study of Mus musculus with 4 samples.

Results

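The genes described here encode matrix metalloproteases (Mmp2, Mmp3, Mmp9, Mmp10, Mmp13 and Mmp14), the urokinase plasminogen activator and its receptor (Plau and Plaur) and the tissue inhibitors of metalloproteases Timp1 and Timp2. They were taken by their gene name in the array files, which gave 15 probes for 10 genes, out of 41174 gene probes for 28034 gene names. Their transcripts were measured in whole back skin taken at an age of 10 days from mice of mixed 129Sv and C57BL/6 background. The cKO animals were Adam17flox/flox and positive for Krt14-Cre, a transgene in which the promoter of keratin 14 drives Cre recombinase in basal keratinocytes and in outer cells of the hair follicle. The control animals were littermates negative for Krt14-Cre. They came from matings of Adam17flox/+ Krt14-Cre with Adam17flox/flox mice, and the labels do not say whether a control carried floxed Adam17 on 1 or both alleles. Since no control carried Cre, its own effect and that of losing ADAM17 cannot be told apart. Each genotype had 2 animals, 1 from each of 2 litters, with 1 animal per 1-colour Agilent array. Dermal, fat and muscle cells, where this promoter is silent, also gave RNA to every value.

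Matrix metalloproteases are zinc-dependent enzymes that cut collagens, gelatin, laminins and many surface proteins, and most are made as inactive precursors. Plau, a serine protease held at the cell surface by Plaur, turns plasminogen into plasmin, which degrades fibrin and can activate several metalloprotease precursors. TIMP proteins bind the active site of metalloproteases, and TIMP2 together with MMP14 also takes part in the activation of pro-MMP2. In skin these genes are best known from wound repair, where keratinocytes, fibroblasts and immune cells each make different members.

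Values are log2 signals relative to the 75th percentile of the gene spots on the same array, so that 0 is the level of that percentile. On each array 53.7% to 56.6% of gene spots were well above background. For the label of back skin, all 4 keratinocyte markers and all 5 fibroblast markers were well above background on every array. Adam17 was read at 69.0% of the control level in cKO skin (adjusted p = 0.114, limma). Over 15550 genes tested, 53 (0.341%) passed an adjusted p of 0.05. In cKO skin 11 of these were higher (0.0707% of all genes tested) and the other 42 lower (0.270%). That count was 0 with litter in the model, 0 without control replicate 1 or control replicate 2, and 24 without cKO replicate 2. The median difference, cKO minus control, was 0.03.

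Sequences of the probes are shown for the members on which the results turn, since a gene's value is that of a stretch of its transcript. The Timp1 probes and the first Mmp9 probe are given whole, and the others by their first 30 of 60 bases, 5′ to 3′.
Timp1 probe 1: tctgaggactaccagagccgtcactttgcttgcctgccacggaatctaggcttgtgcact
Timp1 probe 2: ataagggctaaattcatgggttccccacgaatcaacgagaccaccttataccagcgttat
Timp2 probe: ccgtgagcgttcttgtgccgtgttgatgcc
Mmp9 probe 1: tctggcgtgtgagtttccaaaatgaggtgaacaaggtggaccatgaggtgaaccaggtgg
Mmp9 probe 2: ccaaccttttccagctactttagtcaatca
Mmp3 probe: ctttgtgaaaggaagtgctttgttcagcat
Mmp10 probe: acaaccctgtaaaatgagtctcatgacttc
Mmp13 probe: tcattactcaaggctatgcacactggtaga

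Mmp3, Mmp10 and Mmp13 lie in a cluster of metalloprotease genes on chromosome 9, and their promoters are shown because the 3 genes gave unlike signals in the same skin. The 150 bases before the RefSeq start (GRCm38.p6) are chr9:7445672-7445821 for Mmp3, chr9:7502192-7502341 for Mmp10 and chr9:7272364-7272513 for Mmp13, all on the plus strand. Capitals mark TGAGTCA, the binding motif of AP-1 factors, searched on both strands over 250 bases before the start (its reverse complement reads TGACTCA).
Mmp3: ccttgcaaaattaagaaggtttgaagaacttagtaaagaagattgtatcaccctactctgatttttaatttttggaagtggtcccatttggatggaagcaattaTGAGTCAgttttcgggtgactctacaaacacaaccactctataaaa
Mmp10: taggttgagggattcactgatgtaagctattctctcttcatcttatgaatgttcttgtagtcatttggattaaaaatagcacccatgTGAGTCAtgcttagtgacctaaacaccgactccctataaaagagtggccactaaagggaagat
Mmp13: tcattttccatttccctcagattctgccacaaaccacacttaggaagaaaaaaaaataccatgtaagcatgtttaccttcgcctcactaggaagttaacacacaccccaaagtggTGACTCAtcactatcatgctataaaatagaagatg
The motif began 46 bases before the start in Mmp3, 63 in Mmp10 and 35 in Mmp13. Each of the 3 windows also held TATAAA, closer to the start, at 7 bases in Mmp3, 29 in Mmp10 and 16 in Mmp13. These distances depend on where RefSeq sets the start, which was not checked here. Of 32817 promoters of this length in RefSeq, 4.46% held TGAGTCA, 12.4% TATAAA and 0.719% both. A promoter was found for 7 of the 10 members, and none for Mmp2, Mmp9 and Plau. Plaur held TGAGTCA 69 bases before its start, while the letters were not in the windows of Mmp14, Timp1 and Timp2. Among the Mmp genes with a promoter, 7 of 12 promoters on chromosome 9 and 0 of 9 elsewhere held TGAGTCA. Mmp7, Mmp12 and Mmp23 gave more than 1 promoter each. Mmp2, Mmp9, Mmp16, Mmp17 and Mmp19 had none, so the count elsewhere does not cover them.

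Setting cKO against control skin asks whether transcripts of this protease system differ when keratinocytes lack ADAM17, itself a metalloprotease. No member passed the test over all genes. Of the 10 members, 8 had a probe well above background on both arrays of a genotype and were tested, and 0 of 8 passed (limma, lowest adjusted p = 0.195), against 0.341% of all genes. At an unadjusted p under 0.05 there was 1 member, Timp1, where 16.1% of all genes stood. The log2 differences ran from -0.67 for Timp2 to 0.60 for Timp1, with a median of -0.10 over the 8, beside 0.03 over all genes. In these bulk samples, fewer cells of a type and less RNA per cell cannot be told apart.

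**Figure D1:**
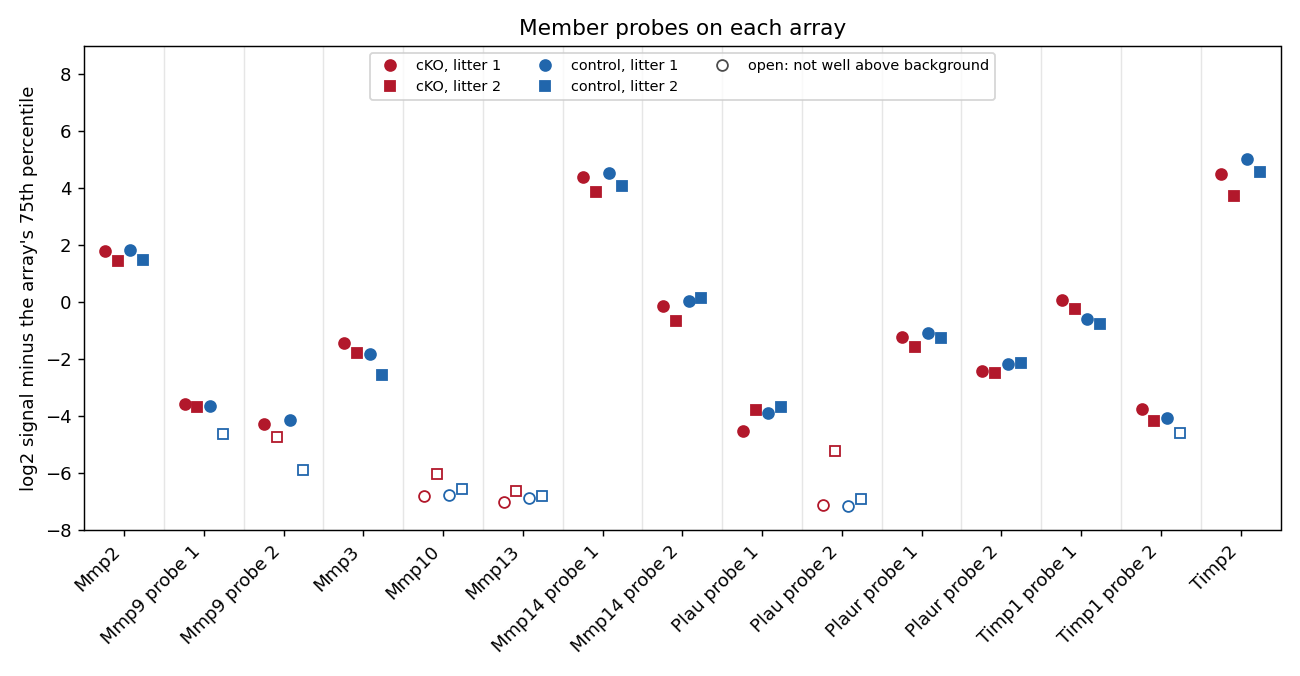
Log2 signal of each of the 15 member probes on the 4 arrays, relative to the array's 75th percentile; red points are cKO and blue points control animals, circles litter 1 and squares litter 2, and open points were not well above background. Timp1 probe 1 lies higher in both cKO animals, Timp2 lower, and the Mmp10 and Mmp13 probes are open on every array.

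The inhibitors stood at the ends of the range. Timp1, a secreted inhibitor known to be induced by growth factors and cytokines, was read by 2 probes on the X chromosome. Its brighter probe (chrX:20451675-20451733, mm9) measured 0.08 and -0.24 on the cKO arrays of litters 1 and 2, against -0.60 and -0.76 on the control arrays. Both cKO animals thus lay above both controls. The difference was 0.60 ± 0.15 (SE), a 1.51-fold higher signal, with a 95% confidence interval of 0.21 to 0.99. It was 0.68 in litter 1 and 0.52 in litter 2 and did not pass over all genes (limma adjusted p = 0.195, and 0.112 with litter as a replicate block).

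The second Timp1 probe (chrX:20449905-20449964) lies nearer the 5′ end of the transcript and was dim. It measured -3.77 and -4.18 on the cKO arrays, against -4.08 and -4.59 on the control arrays, where control litter 2 was not well above background. In litter 1 the cKO animal was higher by 0.32, and the genotypes overlapped across litters. Unlike the brighter probe, which was well above background on all 4 arrays, this probe passed the filter through the cKO arrays. Its difference in litter 2 has no exact size. Its own adjusted p was 0.528 in a limma fit over all probes.

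Timp2, an inhibitor made widely by dermal cells, was read by 1 probe on chromosome 11 (chr11:118163146-118163205, minus strand). It measured 4.51 and 3.72 on the cKO arrays, against 5.02 and 4.56 on the control arrays. Both cKO values were below both control values, though the cKO animal of litter 1 and the control of litter 2 were nearly level. The cKO signal was 62.7% of control, a difference of -0.67 ± 0.32 (SE; limma adjusted p = 0.402, and 0.128 with the block). The 95% confidence interval ran from -1.53 to 0.18.

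Thus the differences of the inhibitors had opposite signs in each litter, 0.68 for Timp1 and -0.51 for Timp2 in litter 1 and 0.52 and -0.84 in litter 2. Keratins 6a, 6b and 16, known from wounded epidermis, did not pass the test (limma adjusted p = 0.115, 0.175 and 0.418). Their summed signal, as multiples of the array's 75th percentile, was 53.6 and 49.8 in cKO skin against 34.8 and 33.8 in control skin, and all 3 were well above background throughout. The sum of 4 general keratinocyte markers was 806 and 840 in cKO skin against 670 and 678 in control skin. These 4 differed unequally, Krt1 by 1.74 and Krt10 by 0.58, but Krt5 by 0.09 and Krt14 by 0.19. For 4 fat cell markers the sum was 51.1 and 51.5 in cKO skin against 36.6 and 30.1 in control skin. Of these 4, 3 were higher in cKO skin in both litters, while Lep differed by 0.63 in litter 1 and -0.29 in litter 2. The part of these markers in the Timp1 values was not tested.

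**Figure D2:**
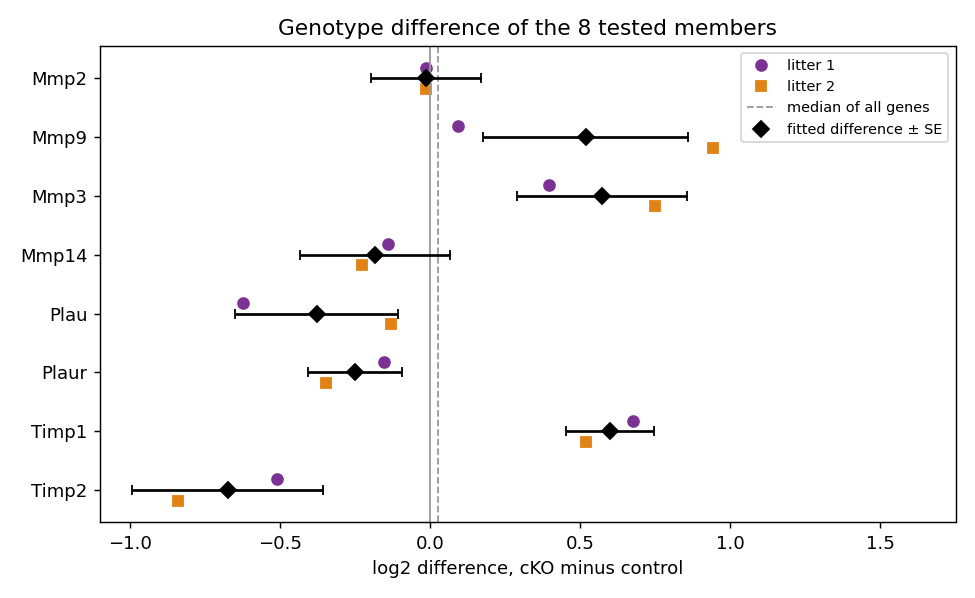
Log2 difference, cKO minus control, of the 8 tested members; diamonds are the fitted differences with their SE, circles the difference in litter 1, squares that in litter 2, and the dashed line the median of all genes. Timp1, Mmp3 and Mmp9 lie to the right of 0 in both litters and Timp2, Plau, Plaur and Mmp14 to the left in both.

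The gelatinases MMP2 and MMP9 degrade denatured collagen and the type IV collagen of basement membranes. Mmp2, made mainly by fibroblasts, was read on chromosome 8 (chr8:95376840-95376899). It measured 1.80 and 1.46 on the cKO arrays, against 1.82 and 1.47 on the control arrays. Littermates of different genotype were closer to each other than animals of 1 genotype from different litters. The difference was -0.01 ± 0.18 (SE; adjusted p = 0.977, limma), with a 95% confidence interval of -0.51 to 0.48. This fit leaves litter out, so the interval, which admits moderate changes either way, includes the spread between litters. With litter as a replicate block the SE was 0.063, and the difference was -0.01 in each litter.

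Mmp9, known from neutrophils, macrophages and wound-edge keratinocytes, was near the limit of detection. Its first probe (chr2:164780303-164780362) measured -3.57 and -3.69 on the cKO arrays, against -3.66 and -4.63 on the control arrays. Only the control of litter 2 stood apart, and there the spot was not well above background. The probe entered the test through the cKO arrays alone, and this filter favours a value above the control. The difference was 0.52 ± 0.34 (SE; adjusted p = 0.526, limma), with 0.09 in litter 1 and, resting on the spot not above background, 0.94 in litter 2.

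The second Mmp9 probe (chr2:164780620-164780679) was printed on 10 spots per array, which shows the technical error at this level. On the cKO arrays the spots had a median of -4.32 in litter 1 (SD 0.24, 8 spots kept) and -4.57 in litter 2 (SD 0.40, 10 spots). On the control arrays the medians were -4.12 in litter 1 (SD 0.24, 10 spots) and -5.73 in litter 2 (SD 0.51, 7 spots). In litter 1, 8 of the 8 cKO spots and 9 of the 10 control spots were well above background, and in litter 2 there were 0 of 10 and 0 of 7. With this probe detection thus followed the litter in both genotypes. The lowest value well above background over all probes also differed by litter. It was -4.86 on both arrays of litter 1, and -4.50 (cKO) and -4.62 (control) in litter 2. The part of this limit in the flags was not tested. The spot averages differed by -0.14 in litter 1, and no difference is given for litter 2, where both arrays were below background. Spots of 1 array are no replicates of an animal.

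Markers of cells that make Mmp9 are given beside it. Of 10 neutrophil markers, 9 had a probe and 3 were tested, while Elane, Ngp, Ltf and Csf3r were well above background on no array. The summed signal of the 3 (Camp, S100a8 and S100a9) was 2.87 and 2.20 in cKO skin against 3.17 and 3.58 in control skin. That sum is carried by S100a8 and S100a9, which keratinocytes also express. Camp, a granule peptide gene, differed the other way, with -3.67 and -3.17 on the cKO arrays against -4.47 and -3.87 on the control arrays (limma adjusted p = 0.309). For 5 of 6 macrophage markers the sum was 4.73 and 4.06 in cKO skin against 4.53 and 3.31 in control skin. The macrophage sum was thus smallest in the control of litter 2, as Mmp9 was in a spot not well above background. The sums of mast cell (9.28), fat cell (30.1), skeletal muscle (214) and wound-type keratinocyte markers (33.8) were smallest there too. Those of general keratinocyte, fibroblast, neutrophil, T cell and endothelial markers were not. Single markers did not all follow their sum. Krt6a, Krt6b, Kit and Lep were lowest in the control of litter 1, and Cpa3 in the cKO animal of litter 2. The part of any of these sums in the Mmp9 values was not tested.

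The stromelysins MMP3 and MMP10 and the collagenase MMP13 share substrates in the wound matrix. Mmp3, a product of dermal fibroblasts and of basal keratinocytes behind the wound edge, was detected on all 4 arrays (chr9:7455751-7455810). It measured -1.44 and -1.80 on the cKO arrays, against -1.83 and -2.55 on the control arrays. Both cKO values lay above both control values, but the cKO animal of litter 2 and the control of litter 1 were nearly level. The difference was 0.57 ± 0.28 (SE), or 1.49-fold, with 0.40 in litter 1 and 0.75 in litter 2 (limma adjusted p = 0.420, and 0.144 with the block).

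Mmp10 (chr9:7510011-7510070) and Mmp13 (chr9:7282762-7282821) were not well above background on any array. Mmp10 measured -6.81 and -6.03 on the cKO arrays, against -6.78 and -6.55 on the control arrays. Mmp13 measured -7.02 and -6.64 on the cKO arrays, against -6.89 and -6.81 on the control arrays. Their processed intensities were 5.96 to 11.9 units, where the 75th percentile lay between 751 and 784 units. Below background the values have no order, so no fold is given. The promoters of all 3 genes, printed above, held the AP-1 motif, while a signal above background was read for Mmp3 alone of the 3.

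Mmp14 encodes a membrane-bound metalloprotease that cuts fibrillar collagen and activates pro-MMP2. Its first probe (chr14:55059969-55060028) measured 4.40 and 3.86 on the cKO arrays, against 4.54 and 4.09 on the control arrays. The genotypes overlapped, with a difference of -0.18 ± 0.25 (SE; adjusted p = 0.763, limma), and the lower value of each genotype was that of litter 2. The second probe (chr14:55058775-55058834) measured -0.14 and -0.66 on the cKO arrays, against 0.03 and 0.15 on the control arrays, without overlap. Its difference of -0.49 ± 0.20 (SE) did not pass over all probes (adjusted p = 0.353, limma). Both probes had the cKO animal lower in each litter, but they disagreed on the order of the control animals.

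Plau and Plaur form the cell surface system that activates plasminogen. The brighter Plau probe (chr14:21662242-21662301) measured -4.53 and -3.80 on the cKO arrays, against -3.90 and -3.67 on the control arrays. The cKO animal was lower in both litters, with differences of -0.62 and -0.13 in litters 1 and 2, and the genotypes overlapped. The fitted difference (-0.38 ± 0.27, SE; adjusted p = 0.558, limma) was -0.01 without cKO replicate 1 and -0.74 without cKO replicate 2. The other Plau probe, whose position spans an interval from chr14:21659855 to 21660221, was not well above background on any array.

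Plaur encodes the urokinase receptor, which is anchored at the cell surface. Its first probe (chr7:25260569-25260628) measured -1.23 and -1.59 on the cKO arrays, against -1.08 and -1.25 on the control arrays. The second (chr7:25259315-25259374) measured -2.41 and -2.49 on the cKO arrays, against -2.17 and -2.15 on the control arrays. The genotypes overlapped by a narrow margin with the first probe and not with the second, and the cKO animal was lower in each litter with both. The differences were -0.25 ± 0.16 (SE; adjusted p = 0.508, limma) for the first and -0.30 ± 0.09 (SE; adjusted p = 0.258 over all probes, limma) for the second, that is 84.1% and 81.4% of the control level.

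In all, 3 of the 8 tested members had no overlap between genotypes, Timp1 and Mmp3 above and Timp2 below, where 49.4% of all genes did not overlap, 28.0% with cKO above and 21.4% with cKO below. The share among the members was thus no higher than that of all genes. Of the 8, 3 were higher in cKO skin in both litters and 5 lower in both, where 40.4% and 32.1% of all genes were. Mmp9, which passed the filter through the cKO arrays, is 1 of the 3 higher. Mmp2, 1 of the 5 lower, was nearly level, at -0.01 in each litter. With litter in the model, 3 members (Timp1, Timp2 and Mmp3) had an unadjusted p under 0.05 and 0 an adjusted one, beside 23.8% of all genes at that unadjusted p.

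**Figure D3:**
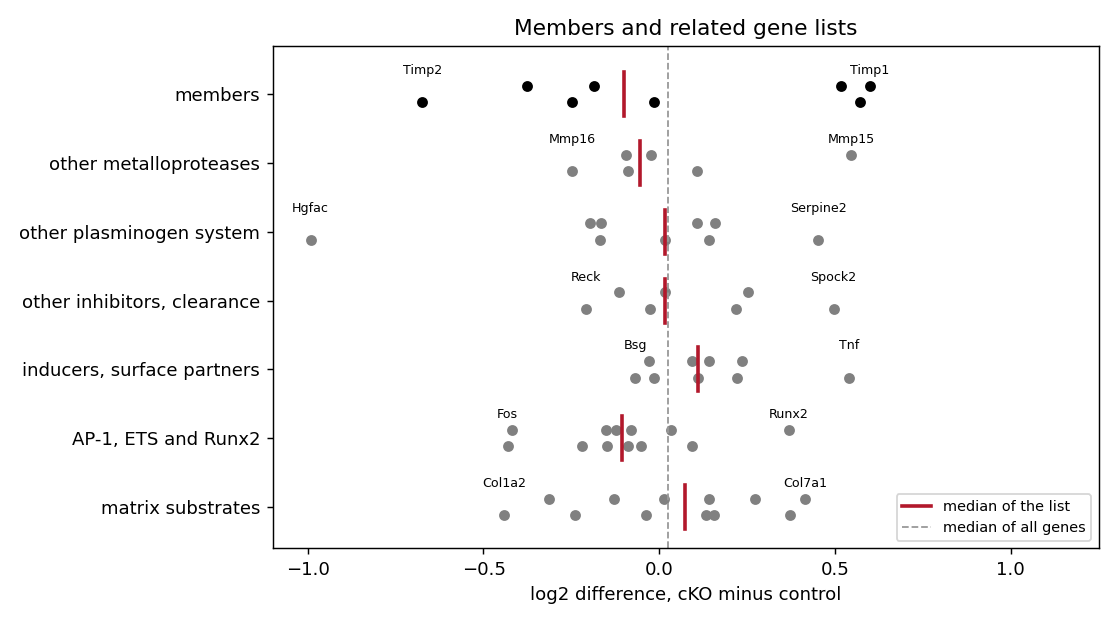
Log2 difference, cKO minus control, of each tested gene in the members and in 6 related lists; red bars are list medians, the dashed line is the median of all genes, and the lowest and highest gene of each list are named. Of the members and the related genes, 0 passed the test over all genes.

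The other genes of the system were taken from 6 lists, and 0 of their tested genes passed over all genes (limma). At an unadjusted p under 0.05, where 16.1% of all genes stood, there were 1 of 6 other metalloproteases and 0 of 7 inhibitors. The plasminogen list gave 1 of 9 (Hgfac) and the inducers 0 of 9. Promoter factors gave 2 of 12 (Junb and Runx2) and matrix substrates 2 of 12. Of 17 other metalloproteases, 15 had a probe and 6 were tested, with a median of -0.06. Of the 15, 8 were well above background on no array, among them the chromosome 9 genes Mmp1a, Mmp7, Mmp8, Mmp12 and Mmp20. Mmp15, a membrane-type metalloprotease like Mmp14, measured -1.43 and -1.43 on the cKO arrays, against -1.98 and -1.96 on the control arrays. Its animals differed little within a genotype, and the difference was 0.55 ± 0.08 (SE; adjusted p = 0.107, limma). Mmp11 stood at 0.11 ± 0.10 (SE; adjusted p = 0.660).

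The list of plasminogen, its other activators, inhibitors and binding proteins also held Hgf and Hgfac. Of its 12 genes, 9 were tested, with a median of 0.02. Plg, which encodes plasminogen and is made mainly in the liver, was well above background on no array. Hgfac, the activator of hepatocyte growth factor, measured -3.66 and -4.25 on the cKO arrays, against -2.82 and -3.10 on the control arrays, a difference of -0.99 ± 0.23 (SE; adjusted p = 0.188, limma). It was not well above background in the cKO animal of litter 2 and passed the filter through the control arrays, so this size is uncertain. Serpine2, an inhibitor of urokinase and thrombin, stood at 0.45 ± 0.19 (SE; adjusted p = 0.347).

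Among other inhibitors and clearance receptors, 7 of 10 were tested, with a median of 0.02. Timp4 stood at 0.25 ± 0.13 (SE; adjusted p = 0.437, limma) and Spock2 at 0.50 ± 0.23 (SE; adjusted p = 0.396). Among inducers and surface partners, 9 of 10 were tested, with a median of 0.11. Tgfb1, a growth factor that promotes Timp1 and matrix genes, stood at 0.22 ± 0.09 (SE; adjusted p = 0.330), and the cytokine gene Tnf at 0.54 ± 0.27 (SE; adjusted p = 0.423). Spock2 and Tnf passed the filter through the cKO arrays, since Spock2 was not well above background in the control of litter 2, nor Tnf in that of litter 1, so the sizes of both differences are uncertain.

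The list of factors known to act on metalloprotease promoters held AP-1 and ETS proteins and the Runt-family factor Runx2. All 12 were tested, with a median of -0.11. Of these, 7 were lower in both litters, where 32.1% of all genes were, though Jund was level in litter 1. Junb, an AP-1 subunit, measured 5.18 and 5.22 on the cKO arrays, against 5.70 and 5.53 on the control arrays, a difference of -0.42 ± 0.10 (SE; adjusted p = 0.195, limma). Runx2, a transcription factor that acts on the Mmp13 promoter, stood at 0.37 ± 0.12 (SE; adjusted p = 0.257). The 12 main matrix substrates had a median of 0.07. Col7a1, the collagen of anchoring fibrils, stood at 0.41 ± 0.14 (SE; adjusted p = 0.279).

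Several members also differed between the litters. Of the 8 tested, 7 were lower in litter 2 than in litter 1 in both genotypes, Plau being the exception, where 30.3% of all genes were lower in both. The count rests on 1 probe per gene, and the Mmp9 value of the control of litter 2 was below background. In control skin the second probes of Mmp14 and Plaur were not lower in litter 2, with differences of 0.12 and 0.02. The litter difference of Timp2, litter 2 minus litter 1, was -0.79 in cKO skin and -0.46 in control skin. That of Mmp14 was -0.54 and -0.45, and that of Mmp2 was -0.34 in each genotype. For Mmp2 and the first Mmp14 probe these exceeded the genotype differences. All 5 fibroblast markers were lower in litter 2 in both genotypes, with a summed signal of 32.5 and 20.3 in the cKO animals of litters 1 and 2 and of 34.0 and 22.3 in the controls. The fibroblast sum thus differed more between litters than between genotypes, and its part in the members' litter differences was not tested.

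**Figure D4:**
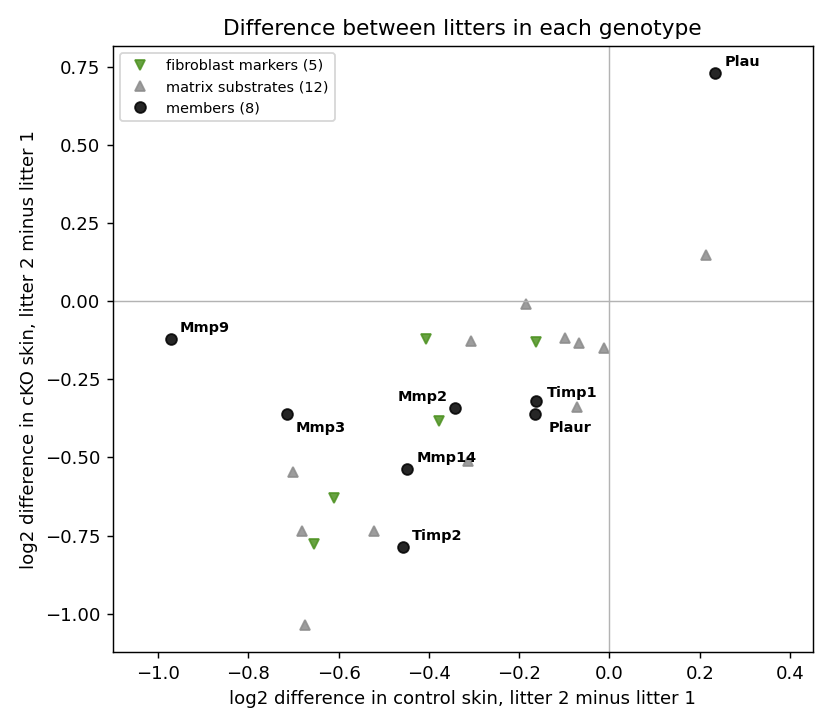
Log2 difference between litters, litter 2 minus litter 1, in cKO skin (vertical axis) against control skin (horizontal axis), for the 8 tested members, 5 fibroblast markers and 12 matrix substrates. All but Plau among the members lie at the lower left, with a lower signal in litter 2 in both genotypes.

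The genes whose 4 values, centred on their mean, lay nearest to those of Timp1 were Efemp1, Epb41l3 and Nfkbia, at Euclidean distances of 0.034, 0.042 and 0.055. Efemp1, which encodes fibulin 3, a matrix protein, measured 2.73 and 2.40 on the cKO arrays, against 2.04 and 1.92 on the control arrays. Nfkbia, the inhibitor of NF-kappa B, measured 4.45 and 4.15 on the cKO arrays, against 3.77 and 3.68 on the control arrays. Epb41l3, which encodes a membrane skeleton protein, measured -3.00 and -3.29 on the cKO arrays, against -3.70 and -3.86 on the control arrays. Likeness over 4 arrays is a description.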

How the data were processed

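Per the labels' protocols, RNA from each biopsy (500 ng) was labelled with Cy3 and read on a 1-colour Agilent array. The deposited scanner files hold the authors' intensity values, background-subtracted and detrended by Feature Extraction (version 10.5 per the submitters' processing notes, 10.7.3.1 per the file headers). Probe positions are in mm9. The deposited series table holds log2 values that equal the log2 processed signal minus the 75th percentile and the probe median (correlation at least 0.99999). Its column medians were -0.06 and 0.08 for cKO and -0.08 and 0.06 for control replicates 1 and 2, and it served as an alternative. No array was saturated in a gene spot, all 4 arrays lay on 1 slide, and precision is limited by how many arrays there were.

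Here, control spots were left out, and the 75th percentile of each array's gene spots was subtracted from log2 processed signals. Outlier spots (51 to 66 per array) were then left out, and spots of a probe were averaged. For the test, 22188 probes were kept that exceeded background clearly on both arrays of a genotype, and the probe of highest mean stood for its gene. Probe accessions were matched to RefSeq symbols (GRCm38.p6) for 26690 probes, 5189 more by symbol and 952 by synonym, while 8343 kept the name in the files. The 4 arrays were fitted by genotype in limma 3.58.1 (R 4.3.3), two-sided, with Benjamini-Hochberg adjustment over all genes. The labels place replicate 1 of each genotype in litter 1 and replicate 2 in litter 2. The animals' deviations from their group means correlated across genes at 0.35 (Spearman 0.43), and litter as a replicate block was an alternative because the design text names no model. Alternatives were another background correction, scaling, filter or probe rule, the authors' table and leaving out each animal. No exon annotation of mm9 was used here.

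Members and lists were chosen with earlier results of these data known. The named genes were the members, Adam17, genes of each list past the threshold or otherwise the 2 with the smallest p, and the 3 genes nearest in pattern to the member with the smallest p. A gene that this rule names is not reported here. Any other gene named was picked with its values known.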

Additional observations from a re-analysis of the deposited data

How the results depend on the processing

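No member and no gene of the related lists passed an adjusted p of 0.05 under any of the 14 alternatives run (lowest adjusted p of a member 0.112, for Timp1 with the replicate block), and pairing by litter changed no call among them. Of 111 values of the 8 tested members under the alternatives, 105 kept their sign. Timp1 (0.44 to 0.76), Mmp3 (0.22 to 0.93), Mmp9 (0.03 to 1.003) and Timp2 (-1.07 to -0.28) kept theirs under every alternative in which they were tested, and Mmp9 was not tested with probes well above background on all 4 arrays. Leaving out 1 animal moved Mmp2 between -0.19 and 0.16 and Mmp14 between -0.45 and 0.08, with both positive without control replicate 1 (0.16 and 0.04) and without cKO replicate 2 (0.16 and 0.084). With normexp background correction, Plau stood at 0.66 and Plaur at 0.18. On cKO replicate 2, 3 spots lay below their local background, and none on the other arrays. Without such spots, an alternative chosen after seeing the data, Plau was at -0.07 and Plaur at -0.22. Over the whole array 53 genes passed (0.341%). The share was 0 with the replicate block (3706 genes at an unadjusted p under 0.05), with normexp (424) and without the filter on dim probes (2079). It was 0.868% (135 genes) with normexp without the spots below local background, 0.514% (80) with quantile normalization, 0.688% (30 higher and 77 lower) with scaling to the median, 0.187% (28) with probes well above background on all 4 arrays and 0.158% (35) with every probe on its own. Without 1 animal it ran between 0 and 0.244%, at 0 genes without control replicate 1 (1840 at an unadjusted p under 0.05), 0 without control replicate 2 (1749), 24 without cKO replicate 2 and 38 without cKO replicate 1. For these counts the cause was not tested. The signal over background limits Mmp9, Mmp10, Mmp13, Plau and the second Timp1 probe.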

Other observations

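The fibrillar collagens, substrates of MMP13 and MMP14, showed the litter difference described for Timp2 and Mmp14. Col1a1 measured 7.75 and 7.02 on the cKO arrays of litters 1 and 2, against 7.89 and 7.37 on the control arrays. Col1a2 measured 7.78 and 6.74 on the cKO arrays, against 8.04 and 7.36 on the control arrays. Of the 12 matrix substrates, 11 were lower in litter 2 than in litter 1 in both genotypes, where 30.3% of all genes were. A difference of at least 0.3 in both genotypes, litter 2 lower, was found for 4.54% of all genes. Mast cell markers, also dermal, had a summed signal of 19.5 and 11.2 on the cKO arrays of litters 1 and 2, against 14.6 and 9.28 on the control arrays. Of the 5 markers, 4 were lower in litter 2 in both genotypes. Kit was higher there, by 0.16 in cKO and 0.23 in control skin. The litters were not compared by a test.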
